A study of Homo sapiens with 2 samples.

Results

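The 10 genes described here encode proteins that hold back apoptosis, the programmed death of a cell, and they act in the pathway of the transcription factor NF-κB or in the BCL2 family, with XIAP as a relative of the NF-κB target BIRC3. They were chosen by gene symbol (BIRC2, BIRC3, XIAP, BCL2, BCL2L1, BCL2A1, MCL1, CFLAR, TRAF1 and SOD2), and all 10 were found among the 49583 genes listed in the 2 libraries. The RNA came from MDA-MB-231, a line of human breast cancer cells that lack the hormone receptors and HER2 amplification (triple-negative). In one library the RNA-binding protein RBMS1 had been stably knocked down, and the other came from control cells of the same line that carried pLKO.1. Per the study's methods, stable knockdown was by lentivirus with an shRNA in pLKO.1, and the lines, once selected with puromycin, were kept in it, so both groups share that drug. Both grew in L15 medium with serum and without added CO2. The labels of the libraries name no cytokine treatment. Each group has 1 library, so neither a replicate check nor a test between groups was possible, and the comparison shows how these 2 libraries differed. A lower value can mean less of an mRNA per cell or fewer cells that hold it, and bulk RNA does not tell these apart.

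Apoptosis is carried out by caspases, proteases that are switched on either at the mitochondrion or below death receptors such as those for TNF, FAS ligand and TRAIL. At the mitochondrion, BCL2, BCL2L1 (BCL-XL), MCL1 and BCL2A1 (BFL1/A1) bind and restrain the pore-forming proteins BAX and BAK1 and the BH3-only proteins that activate them. The inhibitor of apoptosis proteins act later: XIAP inhibits caspases directly, whereas BIRC2 (cIAP1) and BIRC3 (cIAP2) are ubiquitin ligases of the TNF receptor complex, which they reach through TRAF2. Below death receptors, CFLAR (c-FLIP) competes with caspase-8, and TRAF1 is an adaptor that joins TRAF2 and the cIAPs. SOD2 is the superoxide dismutase of the mitochondrial matrix. NF-κB is known to switch on BIRC3, TRAF1, CFLAR, BCL2A1 and SOD2, and in turn depends on signalling through the cIAPs and TRAF proteins.

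The authors deposited transcripts with their FPKM (an abundance per kilobase of transcript and per fragment sequenced) and an interval that covers the error of the estimate in that library, both as Cufflinks writes them. The level of a gene adds up its reference transcripts and those transcripts assembled from the reads that share an intron with it, and its interval is the sum of the lower and of the upper ends. A log2 ratio is that of the knockdown over the control library after 1 FPKM had been added to both. RBMS1 itself stood at 3.76 FPKM (3.12 to 5.39) in the knockdown library and at 24.1 FPKM (21.7 to 27.7) in the control library, 15.6% of control and a log2 ratio of -2.40, in the direction the labels give. Among its transcripts, RBMS1-202 was at 1.3 and 9.88 FPKM in the knockdown and control libraries and RBMS1-201 at 1.21 and 2.99 FPKM. RBMS1-205 (6.59 FPKM) and RBMS1-209 (4.59 FPKM) were listed at 0 in the knockdown library, and RBMS1-213, a retained-intron model at 1.24 FPKM in the knockdown library, was listed at 0 in the control library. The number of reads is unknown because no counts are given, and the median coverage per FPKM was 12.3 in the knockdown and 11.3 in the control library. Of the markers of the line, VIM (496 and 563 FPKM in the knockdown and control libraries), CD44 (154 and 204 FPKM) and AXL (251 and 229 FPKM) were abundant, whereas SPARC was low (1.58 and 0.92 FPKM). ESR1, PGR and CDH1 stayed under 0.1 FPKM, and ERBB2 (7.5 and 7 FPKM) and EPCAM (1.93 and 3.66 FPKM) were low. Of the markers of luminal epithelium, the keratin genes KRT18 (162 and 190 FPKM) and KRT19 (84.4 and 69.6 FPKM) were abundant, whereas GATA3 was low (2.11 and 1.56 FPKM). The fibroblast markers COL1A1 and PDGFRB reached at most 0.855 FPKM. The leukocyte and endothelial markers PTPRC, CD3E, CD68, PECAM1 and CDH5 reached at most 0.115 FPKM, with CD3E, CD68 and CDH5 listed at 0. HTRA2 and CD68 were listed at exactly 0 in both libraries, with the upper ends of their intervals at most 0.655 FPKM. Whether a listed 0 stands for no RNA or for a failed estimate was not tested.

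BIRC3 showed the largest difference of the 10 genes, TRAF1 the next, and BIRC2, which lies next to BIRC3 on chromosome 11, differed little. The sequences before their transcription starts are therefore printed here, from RefSeq on GRCh38.p14, each from 250 bases before to 50 bases after the start site in the direction of transcription. Capitals mark letters that match the κB consensus, the 10-letter motif bound by NF-κB dimers, which was searched for on both strands and as the only motif.
BIRC3 (chr11:102317234-102317533, plus strand): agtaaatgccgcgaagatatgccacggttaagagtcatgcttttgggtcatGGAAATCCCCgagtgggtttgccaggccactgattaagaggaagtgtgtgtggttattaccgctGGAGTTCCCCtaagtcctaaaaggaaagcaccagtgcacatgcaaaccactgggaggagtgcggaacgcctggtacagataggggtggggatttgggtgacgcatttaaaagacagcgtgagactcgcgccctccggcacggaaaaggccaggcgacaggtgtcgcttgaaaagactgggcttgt
BIRC2 (chr11:102346964-102347263, plus strand): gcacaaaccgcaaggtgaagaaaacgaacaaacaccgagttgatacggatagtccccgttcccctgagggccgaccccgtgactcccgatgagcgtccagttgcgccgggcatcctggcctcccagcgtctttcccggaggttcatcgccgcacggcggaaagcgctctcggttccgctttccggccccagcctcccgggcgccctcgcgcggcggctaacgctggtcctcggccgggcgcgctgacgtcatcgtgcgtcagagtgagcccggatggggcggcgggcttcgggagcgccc
TRAF1 (chr9:120929122-120929421, minus strand): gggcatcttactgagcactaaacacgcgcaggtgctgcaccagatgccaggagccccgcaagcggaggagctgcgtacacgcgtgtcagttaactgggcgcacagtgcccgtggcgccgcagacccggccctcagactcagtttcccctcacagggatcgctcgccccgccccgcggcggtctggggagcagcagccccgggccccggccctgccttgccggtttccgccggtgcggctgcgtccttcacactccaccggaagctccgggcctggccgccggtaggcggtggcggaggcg
The BIRC3 window held 2 matches, both read on the opposite strand: GGAAATCCCC at chr11:102317285-102317294, beginning 199 bases before the start site, and GGAGTTCCCC at chr11:102317349-102317358, beginning 135 bases before it. The windows of BIRC2 and TRAF1 held none. Of the 9 genes with a window in the table (MCL1 has none there), CFLAR was the only other one with a match, GGGGAATTCC at chr2:201118619-201118628, 97 bases before the start site of its first window. Over all RefSeq promoters, 3956 of 35116 windows (11.3%) held at least 1 match and 715 (2.04%) held at least 2, and 3619 of 27305 genes (13.3%) had a match in any window. A match describes the letters only, and binding was not measured here.

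In the control library the 10 genes covered a wide range. BCL2L1 was the most abundant (90.5 FPKM, 85.6 to 96.2), followed by MCL1 (46.4 FPKM, 44.2 to 48.8), BIRC2 (38.1 FPKM, 36.2 to 41.2), BIRC3 (30.9 FPKM, 29.4 to 32.9), SOD2 (28.8 FPKM, 27.3 to 31.8) and CFLAR (12.2 FPKM, 11.2 to 15.3). TRAF1 (6.74 FPKM, 6.24 to 7.26), XIAP (5.31 FPKM, 4.69 to 7.52) and BCL2 (1.41 FPKM, 1.09 to 1.97) were lower, and BCL2A1 was barely detected at 0.0946 FPKM (0 to 0.286). Only BIRC3 and SOD2, and TRAF1 and XIAP, were neighbours in this order with overlapping intervals. In the knockdown library BIRC3 came after SOD2 and TRAF1 after XIAP, while the other 6 genes kept their rank, as the plot of levels by gene shows.

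**Figure D1:**
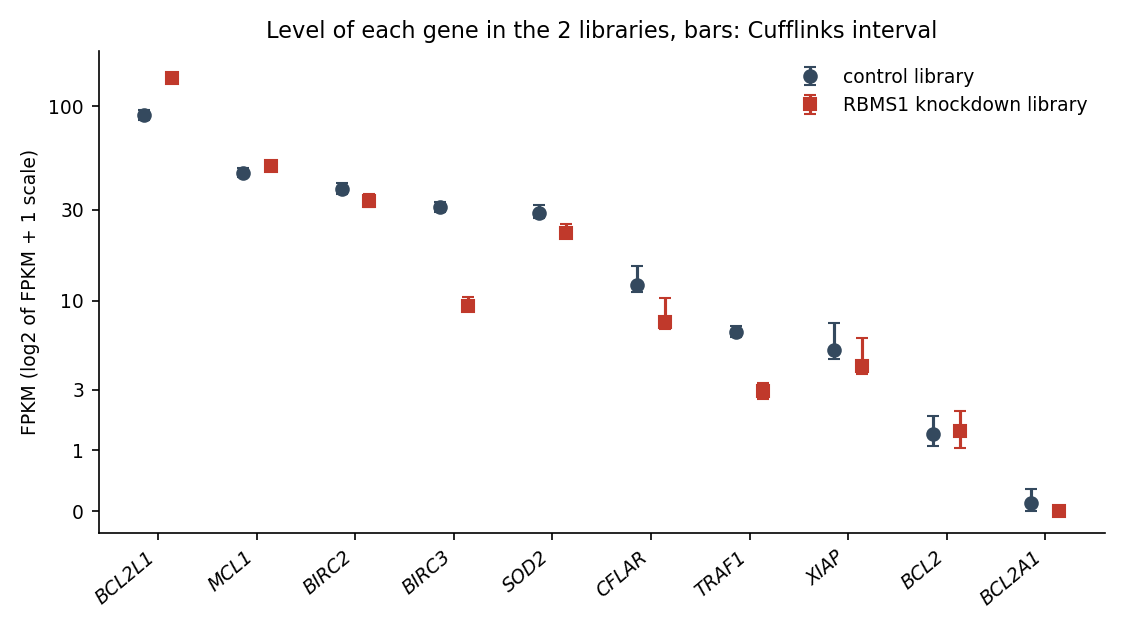
FPKM of the 10 genes (vertical axis, on the scale of log2 of FPKM + 1, labelled in FPKM) in the control library (dark circles) and the RBMS1 knockdown library (red squares), ordered by the control level. Bars are the summed Cufflinks intervals within a library, not replicate error. BIRC3 (30.9 to 9.35 FPKM) and TRAF1 (6.74 to 2.95 FPKM) lie furthest below their control value, and BCL2L1 (90.5 to 139 FPKM) stood above it.

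Of the 10 genes, 9 had a mean of at least 1 FPKM over both libraries, BCL2A1 being the exception. Among these 9, BIRC3, TRAF1, CFLAR, SOD2, XIAP and BIRC2 were lower and BCL2L1, MCL1 and BCL2 higher in the knockdown library. The median log2 ratio was -0.27, against 0.02 over all 11183 genes with a mean of at least 1 FPKM, of which 5280 were lower and 5903 higher. A 2-fold difference on the scale of FPKM + 1 was reached by 1 of the 9 genes in the lower direction (BIRC3), where 2.81% of all genes reached it, and by 0 in the higher direction, where 2.94% did. The intervals of both libraries did not overlap for 4 lower genes (BIRC3, TRAF1, SOD2 and CFLAR), against 11.5% of all genes, and for 1 higher gene (BCL2L1), against 13.2%. With the most abundant transcript alone, 4 of 8 genes had intervals apart, as CFLAR and BCL2L1 overlapped and BIRC2 did not. With reference transcripts only, 5 of 8 had intervals apart. The share of all genes in these settings is not given. These intervals cover the estimate within a library and say nothing of the spread between cultures.

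Of the inhibitor of apoptosis proteins, BIRC3 was at 9.35 FPKM (8.78 to 10.5) in the knockdown and at 30.9 FPKM in the control library. The knockdown library was thus at 30.3% of control, 3.3-fold lower, with a log2 ratio of -1.62 and bounds of -1.80 to -1.41 from the ends of the intervals. Counted from the lowest log2 ratio, it was number 180 of the 11183 genes. The whole value came in both libraries from 1 of 7 reference transcripts, BIRC3-201, which has 9 exons and 5197 bases, codes for 604 amino acids and had a coverage of 117 and 353 in the knockdown and control libraries. The gene lies at chr11:102317450-102339403 on the plus strand.

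BIRC2 begins 7807 bases after the end of BIRC3, at chr11:102347211-102378670 on the same strand. Its level was 33.2 FPKM (31.2 to 36.3) in the knockdown and 38.1 FPKM in the control library, a log2 ratio of -0.19 with intervals that just overlapped. The reference transcript BIRC2-201, which codes for 618 amino acids, was at 26.9 and 38.1 FPKM in the knockdown and control libraries. An assembled transcript of 8 exons, listed in the knockdown library only, added 6.36 FPKM there, and without it the log2 ratio was -0.49. The 2 neighbouring ligase genes thus differed in size under every way of summing from the per-library files, with BIRC3 between -1.71 and -1.32 and BIRC2 between -0.49 and -0.17.

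XIAP (chrX:123859724-123913979, plus strand), the direct caspase inhibitor, was at 4.25 FPKM (3.75 to 6.22) in the knockdown and 5.31 FPKM in the control library, with a log2 ratio of -0.27 and overlapping intervals. Its isoforms were divided differently. XIAP-202 was at 2.22 and 2.12 FPKM in the knockdown and control libraries, XIAP-205 was listed at 0 in the knockdown and at 1.92 FPKM in the control library, and XIAP-201 was at 0.472 FPKM in the knockdown and listed at 0 in the control library. An assembled transcript added 1.56 FPKM in the knockdown and another 1.27 FPKM in the control library. All of them hold the same coding introns, of a frame of 497 codons.

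In the BCL2 family, BCL2L1, MCL1 and BCL2 were all higher in the knockdown library, and of these the intervals were apart in BCL2L1 alone. BCL2L1 (chr20:31664452-31723989, minus strand) was at 139 FPKM (130 to 147) in the knockdown and 90.5 FPKM in the control library, a log2 ratio of 0.61 with bounds of 0.43 to 0.78. The long form BCL-XL, of 233 codons, is encoded by BCL2L1-201, which was at 70.1 and 64.2 FPKM in the knockdown and control libraries, and by BCL2L1-203, at 24.0 and 26.3 FPKM. The remaining 44.3 FPKM (41.3 to 47.4) of the knockdown library belonged to BCL2L1-205, which was listed at 0 in the control library. That model has 2 exons and 1157 bases, is annotated as incomplete at its 3′ end, and stops after 188 codons, before the last coding exon. Without it the gene stood at 94.2 and 90.5 FPKM in the knockdown and control libraries, with a log2 ratio of 0.06, so the difference in BCL2L1 rested on this 1 short transcript model.

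MCL1 (chr1:150574551-150579738, minus strand), a short-lived guardian, was at 50.2 FPKM (47.9 to 52.7) in the knockdown and 46.4 FPKM in the control library, a log2 ratio of 0.11 with overlapping intervals. All of it was MCL1-202, the 3-exon transcript of the full-length protein of 350 amino acids, and the other 3 reference transcripts stayed under 0.05 FPKM in both libraries. Each library held its own assembled transcript that runs over MCL1 from the side of ADAMTSL4-AS1, sharing no intron with MCL1. That of the knockdown library had 8453 bases and 6.49 FPKM, and that of the control library 7638 bases and 7.27 FPKM. Adding each to MCL1 in its library gave a log2 ratio of 0.08.

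BCL2 (chr18:63123346-63320128, minus strand) was at the low level of 1.49 FPKM (1.06 to 2.13) in the knockdown and 1.41 FPKM in the control library, with a log2 ratio of 0.05 and bounds of -0.53 to 0.58. BCL2-202 was at 0.322 and 0.224 FPKM in the knockdown and control libraries, and BCL2-201 at 0.542 FPKM in the knockdown library and listed at 0 in the control library. Assembled transcripts made up the rest, 0.405 and 0.221 FPKM in the knockdown and 0.727 and 0.460 FPKM in the control library. Reference transcripts alone gave a log2 ratio of 0.61, and weighting each transcript by its length gave -0.31, so neither the size nor the direction was stable for BCL2. BCL2A1 (chr15:79960889-79971446, minus strand), an NF-κB target known mainly from blood cells, was listed at 0 in the knockdown library and at 0.0946 FPKM with a coverage of 1.15 in the control library, and no difference can be read at this level.

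**Figure D2:**
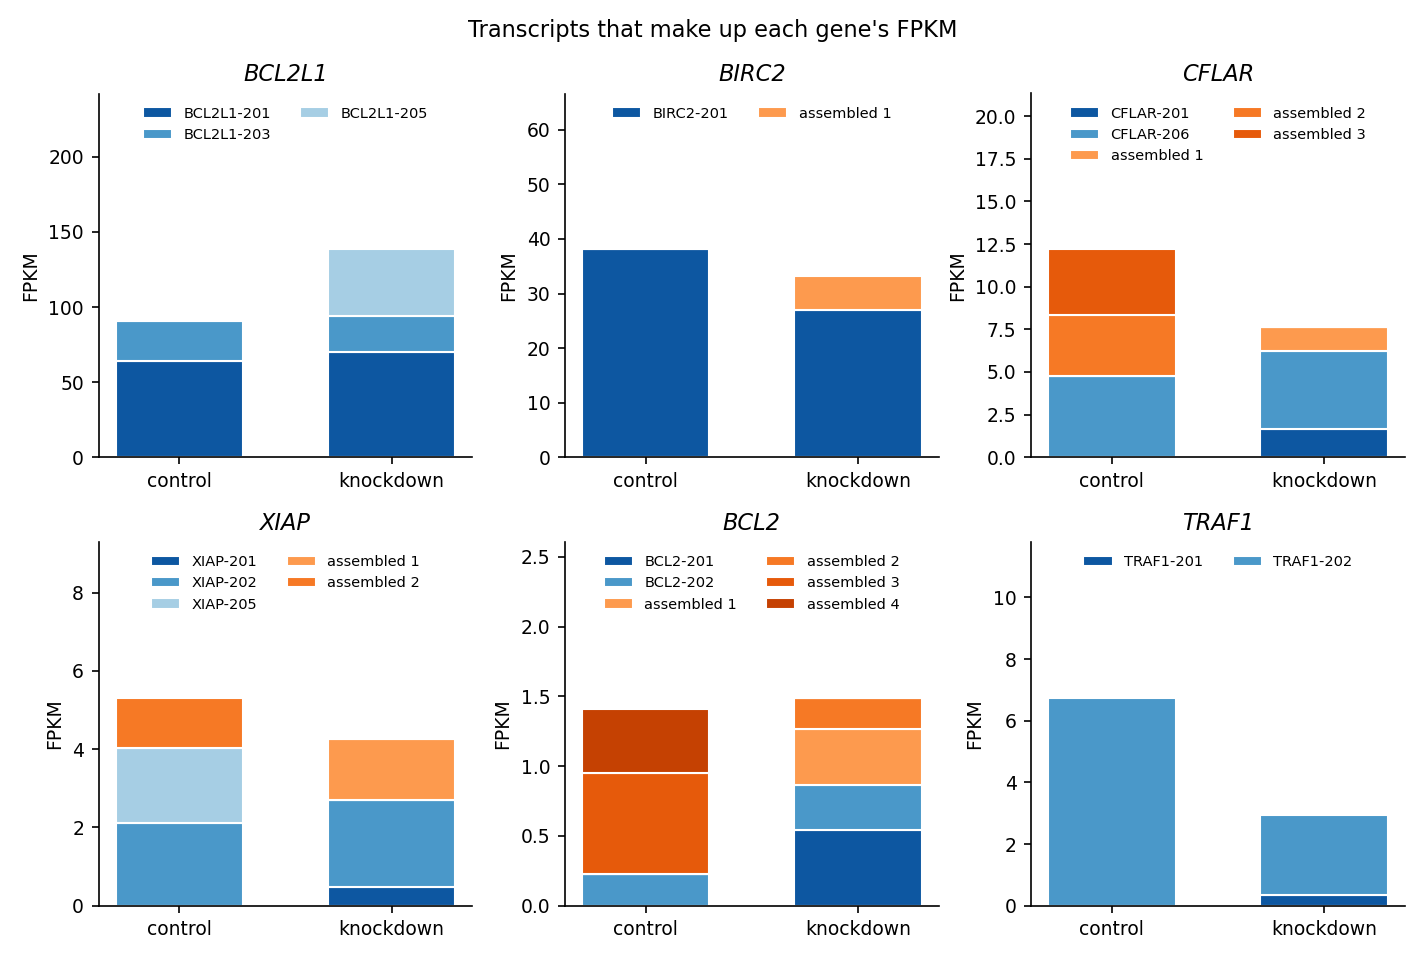
Transcripts that make up the level of 6 genes: FPKM (vertical axis, linear from 0, a scale for each gene) in the control and the knockdown library, stacked by transcript, with reference transcripts in blue and assembled transcripts in orange. In BCL2L1 the pale block of BCL2L1-205 (44.3 FPKM) is present in the knockdown library only, and in CFLAR the orange blocks make up most of the control bar.

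Below death receptors, CFLAR (chr2:201116104-201176687, plus strand) was at 7.65 FPKM (6.99 to 10.3) in the knockdown and 12.2 FPKM in the control library, a log2 ratio of -0.61 with bounds of -1.03 to -0.11. CFLAR is known for a long form, which resembles caspase-8 without its activity, and short forms that hold the death effector domains only. CFLAR-206, with a short frame of 250 codons, hardly differed at 4.57 and 4.77 FPKM in the knockdown and control libraries. CFLAR-201, the long form of 480 codons, was at 1.64 FPKM in the knockdown and listed at 0 in the control library. In the control library an assembled transcript that holds all coding introns of CFLAR-201 was at 3.59 FPKM instead, and a shorter one of 5 exons at 3.83 FPKM, against 1.44 FPKM of an assembled transcript in the knockdown library. The lower level of CFLAR thus lay in assembled transcripts, and with reference transcripts alone its log2 ratio was 0.32.

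TRAF1 (chr9:120902393-120929173, minus strand), the adaptor of TRAF2 and the cIAPs, was at 2.95 FPKM (2.58 to 3.33) in the knockdown and 6.74 FPKM in the control library, 2.28-fold lower and 43.8% of control. Its log2 ratio of -0.97, with bounds of -1.20 to -0.74, lay just short of a 2-fold difference because 1 FPKM had been added to both values. TRAF1-202 was at 2.60 and 6.74 FPKM in the knockdown and control libraries, and TRAF1-201 was at 0.348 FPKM in the knockdown and listed at 0 in the control library. Both code for the same 416 amino acids. No assembled transcript was part of the value.

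SOD2 (chr6:159669057-159745186, minus strand, over both gene identifiers of that symbol) was at 22.8 FPKM (21.6 to 25.5) in the knockdown and 28.8 FPKM in the control library, 79.4% of control, with a log2 ratio of -0.32 and bounds of -0.53 to -0.10. In both libraries the whole value stood on SOD2-214, a transcript of 5 exons with a frame of 141 codons that is annotated as a target of nonsense-mediated decay, and the other 14 reference transcripts were listed at under 0.05 FPKM. The table of both libraries that the authors deposited lists 5 SOD2 transcripts instead, all annotated as coding, and their FPKM sum to 32.5 in the knockdown and 74.7 in the control library, 43.5% of control. Both files put the knockdown library lower, and they differ in the size of the difference and in the transcripts.

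That table holds 7236 transcripts and gives their FPKM on a scale of its own. It is limited to transcripts that passed a threshold on p in the authors' own comparison, so a listed transcript was selected for its difference, and its values are side by side here as a description. It lists 15 transcripts of 8 of the 10 genes. For BIRC3, 3 listed transcripts sum to 17.3 FPKM in the knockdown and 58.1 FPKM in the control library, 29.8% of control, beside 30.3% in the per-library files, and BIRC3-201 makes up most of both sums (15.7 and 52.1 FPKM). For TRAF1, 2 transcripts sum to 5.40 and 12.4 FPKM, 43.7% of control beside 43.8% in the per-library files. For MCL1, BCL2L1, BIRC2 and XIAP it lists a single transcript each, which is not the most abundant one of the per-library files: MCL1-204 was at 2.06 and 4.37 FPKM in the knockdown and control libraries, BCL2L1-208 at 7.47 and 2.94 FPKM, and BIRC2-210 and XIAP-201 at 1.58 and 1.17 FPKM in the knockdown library and at 0 in the control library. BCL2A1-201 is listed there at 0 in the knockdown and at 0.177 FPKM in the control library. No transcript of BCL2 or CFLAR was read from it. The plot of log2 ratios by setting shows that BIRC3, TRAF1 and SOD2 stayed on the lower side in each setting that gave a value. BCL2L1 stayed on the higher side. BCL2A1 could only fall on the lower side, because it is listed at 0 in the knockdown library in both sources. CFLAR and BCL2 changed side in 1 setting each, as did BIRC2 and MCL1, and XIAP in 2.

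**Figure D3:**
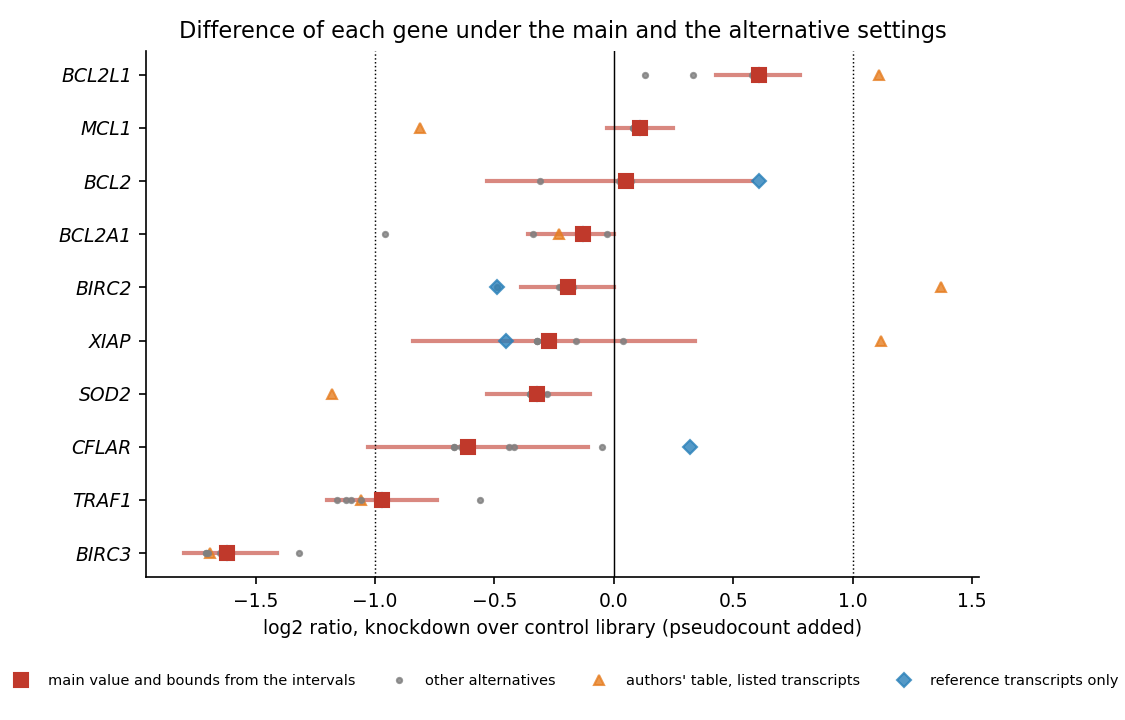
Log2 ratio of each gene, knockdown over control library (horizontal axis), for the 10 genes. Red squares and bars give the main value and its bounds from the intervals, blue diamonds reference transcripts only, orange triangles the listed transcripts of the authors' table, and grey dots the other settings, with dotted lines at a 2-fold difference. BIRC3 stays between -1.71 and -1.32, whereas BCL2 lies between -0.31 and 0.61 and CFLAR between -0.67 and 0.32.

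Other genes of cell death and NF-κB were described in 9 lists of 55 genes, of which 47 had a mean of at least 1 FPKM. Of these 47, 28 were lower and 19 higher (5280 and 5903 of all 11183 genes), with a median log2 ratio of -0.09, and 1 was at least 2-fold lower and 1 at least 2-fold higher. The lowest median belonged to the NF-κB subunits and their inhibitors, which was -0.54, with all 8 genes lower and 6 of them with intervals that did not overlap, where 11.5% of all genes were apart in that direction. RELB, the subunit of the non-canonical NF-κB dimer, was at 6.16 and 13.7 FPKM in the knockdown and control libraries, with a log2 ratio of -1.04. Named after their values had been seen, NFKBIE (6.15 and 11.2 FPKM) and NFKBIA (21.7 and 34.2 FPKM), which encode inhibitors that NF-κB itself is known to switch on, had log2 ratios of -0.77 and -0.63. With reference transcripts only, 7 of the 8 were lower and 1 higher, since NFKB1 moved from -0.53 to 0.22.

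Among the death receptors and adaptors 10 of 11 genes were lower, with a median of -0.26 and 5 of the 10 with intervals apart, again beside 11.5% of all genes. The exception was FADD, the adaptor that brings caspase-8 to its receptors, at 15.7 and 5.05 FPKM in the knockdown and control libraries and a log2 ratio of 1.47. That value came from assembled transcripts, because reference transcripts alone gave 4.09 and 5.05 FPKM and a log2 ratio of -0.25. Named after its values had been seen, FAS, the receptor of FAS ligand, reached 1.28 FPKM in the knockdown library but was listed at 0 in the control library, and its mean kept it out of these counts. It entered them with TPM, where 10 of 12 genes were lower and 2 higher, both at least 2-fold. TPM here rescales FPKM to the sum over all gene values, and 13705 genes then passed the unchanged minimum mean of 1, against 11183. With reference transcripts only, 9 of 11 were lower and 2 higher, and 1 was at least 2-fold lower.

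Of the multidomain effectors, 2 of 3 were lower and 1 higher (median -0.11), with BAX, the largest difference, at 40.2 and 45.4 FPKM in the knockdown and control libraries. All 3 were lower with reference transcripts only and with the most abundant transcript alone, with the same median. Of the BH3-only genes, 3 of 6 were lower and 3 higher (median -0.16), a split that became 4 and 2 when the libraries were rescaled, and BIK, which binds the guardians at the endoplasmic reticulum, was at 0.938 and 2.61 FPKM with a log2 ratio of -0.90. The intervals were apart for 2 BH3-only genes in the lower and 1 in the higher direction, beside 11.5% and 13.2% of all genes, and for 0 of the effectors. Of the other BCL2-like guardians, 1 of 2 was lower and 1 higher (median 0.02), with BCL2L2 at 9.49 and 8.85 FPKM.

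The remaining lists stood slightly above 0. The other IAPs had 3 of 3 genes higher (median 0.17), none with intervals apart. NAIP was at 1.58 and 0.749 FPKM in the knockdown and control libraries, or 0.753 and 0.749 FPKM with its most abundant transcript alone. Of the IAP antagonists and mitochondrial factors, 2 of 3 were higher (median 0.08), and APAF1, the core of the apoptosome, was at 6.79 and 5.45 FPKM. With reference transcripts only this split turned to 2 of 3 lower (median -0.02), as CYCS (cytochrome c, also named after its values had been seen) went from 118 and 111 FPKM to 4.37 and 7.4 FPKM. Of the caspases, 5 of 6 were higher (median 0.12), none with intervals apart, and CASP8, the caspase that CFLAR opposes, was at 11.4 and 7.81 FPKM, or 5.23 and 5.16 FPKM with reference transcripts only. With the most abundant transcript of each gene alone, 4 of 5 caspases were lower. Of the other antioxidant enzymes, 3 of 5 were higher (median 0.10), and PRDX3, a peroxidase of the mitochondrial matrix where SOD2 acts, was at 106 and 78 FPKM. With reference transcripts only, and with the most abundant transcript alone, 4 of these 5 were higher (median 0.31). The list medians beside the 10 genes are drawn in the plot of cell death lists.

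**Figure D4:**
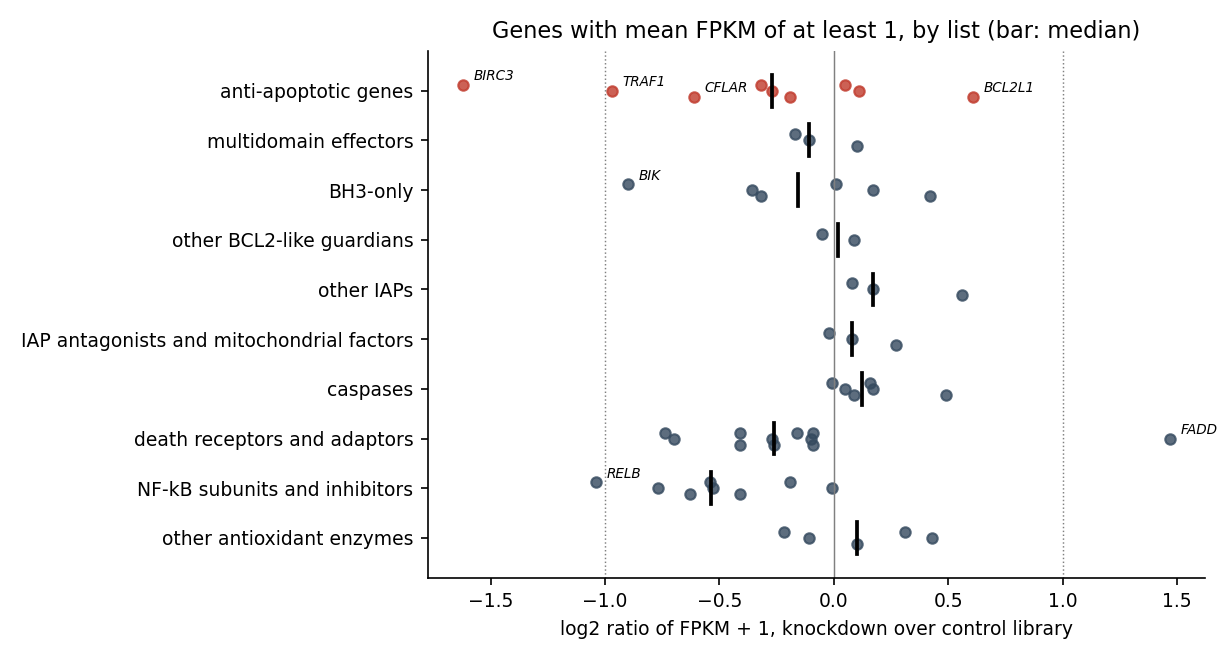
Log2 ratio of FPKM + 1, knockdown over control library (horizontal axis), of each gene with a mean of at least 1 FPKM among the anti-apoptotic genes (red, without BCL2A1) and in 9 other cell death lists (dark), with a black bar at the median of each list and dotted lines at a 2-fold difference. The anti-apoptotic genes spread from -1.62 to 0.61, and all 8 NF-κB genes lie at or left of -0.01.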

How the data were processed

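RNA-seq was carried out on 1 RBMS1 knockdown and 1 control library of MDA-MB-231 cells. Per the submitters' processing notes, Bowtie2 2.0.6, TopHat2 2.0.9, Cufflinks 2.1.1 and Cuffdiff 2.1.1 were used. The genome build is not given in the sources used here, and 97.3% of the matched reference transcripts started and ended as in GENCODE release 29 (GRCh38). The authors deposited, for each library, transcripts with FPKM, its interval and coverage. They also deposited a table of both libraries, of which the FPKM columns were used as an alternative. Its fold changes, p-values and q-values are the authors' own comparison and were not used.

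Gene values were summed as the report describes, with 6507 and 6583 assembled transcripts given to a gene in the knockdown and control libraries. Transcripts given to no gene held 70.9% and 71.9% of the summed FPKM in the knockdown and control libraries. These are assembled transcripts and reference transcripts not found in GENCODE 29, and their split was not computed. The strand of the libraries is not given in the sources used here, so overlapping and antisense genes could share fragments. Counts and medians are over genes that averaged at least 1 FPKM. No test was made. The scripts (Python 3.11.15) were tested on simulated data. The sequence tables are from RefSeq (GRCh38.p14).

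The 10 genes, RBMS1, every listed gene averaging at least 1 FPKM with an absolute log2 ratio of at least 1, or else the largest of its list, and transcripts holding at least 10 percent of a gene were named. The genes and lists were chosen with earlier results of these data known. The 12 alternatives concerned pseudocount, transcripts summed, scaling, filter and source table, and 2 were added after the data had been seen, as was leaving out BCL2L1-205.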

Additional observations from a re-analysis of the deposited data

Results flagged for a closer look

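Assembled transcripts that overlap a gene on its strand, in whole or in part, but share no intron with any gene were outside every gene value. They were found in 7 of the 10 genes. Their mean FPKM, weighted by length, was higher in the knockdown than in the control library in 5, given below. It was lower in BCL2 (49 over 91091 bases at 0.345 FPKM against 39 over 38933 bases at 0.617 FPKM). It was also lower in XIAP (5 over 3109 bases at 1.51 FPKM against 11 over 6509 bases at 1.52 FPKM). Bases are summed transcript lengths, so overlapping transcripts count a base more than once. Since numbers and lengths differed between the libraries, the direction of the mean need not be that of the summed signal. The difference was not tested, and the share over all genes was not computed. In BIRC3 there were 2 of them over 1134 bases with a mean of 1.51 FPKM in the knockdown and none in the control library. In TRAF1 there was 1 over 294 bases at 8.77 FPKM in the knockdown and none in the control library. In CFLAR 5 covered 9632 bases at a mean of 3.66 FPKM in the knockdown library, and 1 covered 460 bases at 2.56 FPKM in the control library. In BCL2L1 1 of 265 bases was at 23.9 FPKM in the knockdown library, against 2 over 587 bases at a mean of 22.6 FPKM in the control library. In SOD2 10 covered 14639 bases at a mean of 0.486 FPKM in the knockdown library, and 6 covered 7867 bases at 0.426 FPKM in the control library. These values are not part of the gene levels.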

How the results depend on the processing

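No paired analysis was possible because each group has a single library, and for the same reason none could be left out. RBMS1 remained far lower throughout, at -1.73 with 5 FPKM added. The number of genes at least 2-fold lower was 1, and it became 2 with 0.1 FPKM added, with TPM, with the most abundant transcript alone and with sums weighted by length, TRAF1 joining BIRC3. The share of all genes at least 2-fold lower rose as well, from 2.81% to 3.78%, 4.88%, 3.96% and 3.57% in these 4 settings. With TPM the 1 added and the minimum mean of 1 were not rescaled. The addition thus weighed less, and 13705 genes were kept in place of 11183. In the authors' table, which gives values for 5 of the genes at a mean of at least 1 FPKM, 3 were at least 2-fold lower, 1 was at least 2-fold higher, and the median was -1.06, but 20.7% and 20.8% of all genes in that table were at least 2-fold lower and higher, since it holds transcripts selected for a difference. The log2 ratio stayed below 0 in every setting for BIRC3 (-1.71 to -1.32), TRAF1 (-1.16 to -0.56) and SOD2 (-1.18 to -0.28), and above 0 for BCL2L1 (0.13 to 1.11, and 0.06 without BCL2L1-205). The most abundant transcript of BCL2 was assembled in the control library alone and gives no ratio. SOD2 has no value from coding reference transcripts, which are listed at 0. The direction of CFLAR changed with reference transcripts only (0.32), that of BCL2 with sums weighted by length (-0.31), that of BIRC2 (1.37), XIAP (1.12) and MCL1 (-0.81) in the authors' table, and that of XIAP also with its most abundant transcript alone (0.04). The cause was not tested. Low levels limit BCL2A1 and BCL2, and reads behind them are unknown.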
